A study of Mus musculus with 4 samples.

Results

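This section describes 47 genes of the endoplasmic reticulum (ER) in recruited renin cells of the mouse, namely the genes that carry secreted proteins into the ER and mature them there, and the genes of the unfolded protein response (UPR). The members were chosen by name as translocon, signal peptidase, oligosaccharyl transferase, chaperone, stress sensor and stress target genes, and all 47 were found among the 32647 gene symbols measured. All 4 libraries came from 1 condition. Adult C57BL/6 mice that carried the Ren1c-YFP transgene, a reporter that makes renin-expressing cells fluoresce yellow, were given a low-sodium diet with captopril at 0.5 g/L in the drinking water for 1 week, which recruits further kidney cells to make renin. Fluorescent cells of the kidney cortex were sorted, a small pool of cells was amplified to cDNA, and 2 samples were each measured in 2 technical replicates. The titles number the samples 1 and 2, and each sample is read here as 1 mouse. Whether a sample pooled several mice is not stated in the titles. The reporter is driven by the renin promoter, shows its activity and not the identity of a cell, and untreated cells are not analysed here, so every value below is a level in recruited cells and none is a response to the treatment.

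A protein bound for secretion enters the ER through the Sec61 channel, loses its signal peptide to signal peptidase, receives sugar chains from oligosaccharyl transferase and is folded by ER chaperones. Renin is such a protein, which is made as a precursor with a signal peptide and carries N-linked sugars. When unfolded proteins build up, the sensors IRE1α (Ern1), PERK (Eif2ak3) and ATF6 switch on the UPR, whose targets enlarge the folding capacity, degrade misfolded proteins and, through ATF4 and CHOP (Ddit3), change metabolism and survival. The members were therefore read as 18 genes of secretory machinery, 5 general folding factors, 21 stress-induced targets and 3 stress sensors.

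Some of the chaperones and targets hold a stress element in their promoters, which was not used to choose the members, although UPR targets are in part known as genes with such elements. Of the 38 members with a promoter in the RefSeq table of GRCm38 (300 bases, from 250 before to 50 after the start of transcription), 8 held an exact ER stress response element (ERSE), the site bound by ATF6 together with NF-Y. The ERSE was searched on both strands as CCAAT, 9 bases of any kind and CCACG. The share was 21.1% of the members, against 0.137% of the 27025 genes in the table, or 37 genes in all. The 8 genes were 6 of 18 matched targets (Hspa5, Hsp90b1, Pdia6, Creld2, Dnajc3 and Syvn1) and 2 of 5 folding factors (Calr and Canx), and no ERSE was found in the windows of 13 matched genes of secretory machinery or of 2 sensors. The sites are shown because exact matches were found among the chaperones and stress targets and not among the matched machinery. They are written along the strand of the gene, with the outer boxes of the element in capitals and the 9 bases between them in lower case. Where the element lies on the opposite strand it reads CGTGG and ATTGG.

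Hspa5 (chr2:34772020-34772048): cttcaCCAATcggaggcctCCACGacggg
Hsp90b1, near site (chr10:86705528-86705556): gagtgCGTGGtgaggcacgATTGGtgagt
Hsp90b1, far site (chr10:86705633-86705661): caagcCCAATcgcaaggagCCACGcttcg
Pdia6 (chr12:17266486-17266514): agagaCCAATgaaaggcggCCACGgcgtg
Creld2 (chr15:88819515-88819543): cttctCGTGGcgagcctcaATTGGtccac
Dnajc3 (chr14:118937822-118937850): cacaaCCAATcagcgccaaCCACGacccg
Syvn1 (chr19:6046527-6046555): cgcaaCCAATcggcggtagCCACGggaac
Calr (chr8:84847070-84847098): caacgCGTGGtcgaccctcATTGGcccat
Canx (chr11:50325795-50325823): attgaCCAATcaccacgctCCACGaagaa

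All 9 of these sites lay between 26 and 212 bases before the RefSeq start of the gene. Gene ranges given below follow GENCODE, whose outermost start can lie upstream of the RefSeq start, so that the Hspa5 site falls inside the GENCODE range of that gene. A second form, ERSE-II (ATTGG, 1 base of any kind and CCACG), was found in 2 members, both of them targets, against 0.0444% of all genes. It is shown in capitals for Herpud1, where it lay 42 to 52 bases before the start, and for Dnajb11, where it lay just after it.

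Herpud1 (chr8:94386368-94386396): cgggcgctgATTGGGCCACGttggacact
Dnajb11 (chr16:22857843-22857871): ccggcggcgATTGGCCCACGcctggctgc

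The composite element read by ATF4 and CHOP (CARE) was searched on both strands as TGATG, 1 base of any kind and AA. It was present in Herpud1 and Trib3, or 5.26% of the 38 matched members, close to the 4.51% of all genes. The Trib3 match lay just after the start. The XBP1 element TGACGTGG was in no member's window and in 0.714% of all genes. A match is a description of the letters and was not tested for binding. The 9 members without a promoter in the table were Sec61a1, Ssr2, Spcs3, Sec11c, Ostc, Hyou1, Manf, Derl1 and Atf6.

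Levels are in TPM (transcripts among 1000000), which divide by transcript length, and technical replicates were averaged within a mouse before the level and its SD were taken over the mice (n = 2). Estimated counts totalled 19871382 to 47471036 per library. The cDNA was amplified by PCR and no molecular identifiers are described, so that these totals do not count molecules and no counting interval was computed. Of the 47 members, 32 reached at least 1 TPM in each of the 4 libraries, against 9.74% of all symbols, 16.5% of the 19229 symbols above 0 TPM in any library and 14.0% of protein-coding symbols. By group these were 15 of 18 genes of secretory machinery, 5 of 5 folding factors, 12 of 21 targets and 0 of 3 sensors. Without technical replicate 2 of mouse 2, 18 of 21 targets did. All 47 members reached 1 TPM in at least 1 library. Just inside the limit was Trib3, with a lowest library of 1.21 TPM, and just outside it Ssr1, with a lowest library of 0.996 TPM. Together the members made up 0.537% and 0.574% of all TPM in mouse 1 and 0.403% and 0.369% in mouse 2. Renin itself (Ren1) was at 29637 and 28674 TPM in mouse 1, against 21904 and 15933 in mouse 2.

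**Figure D1:**
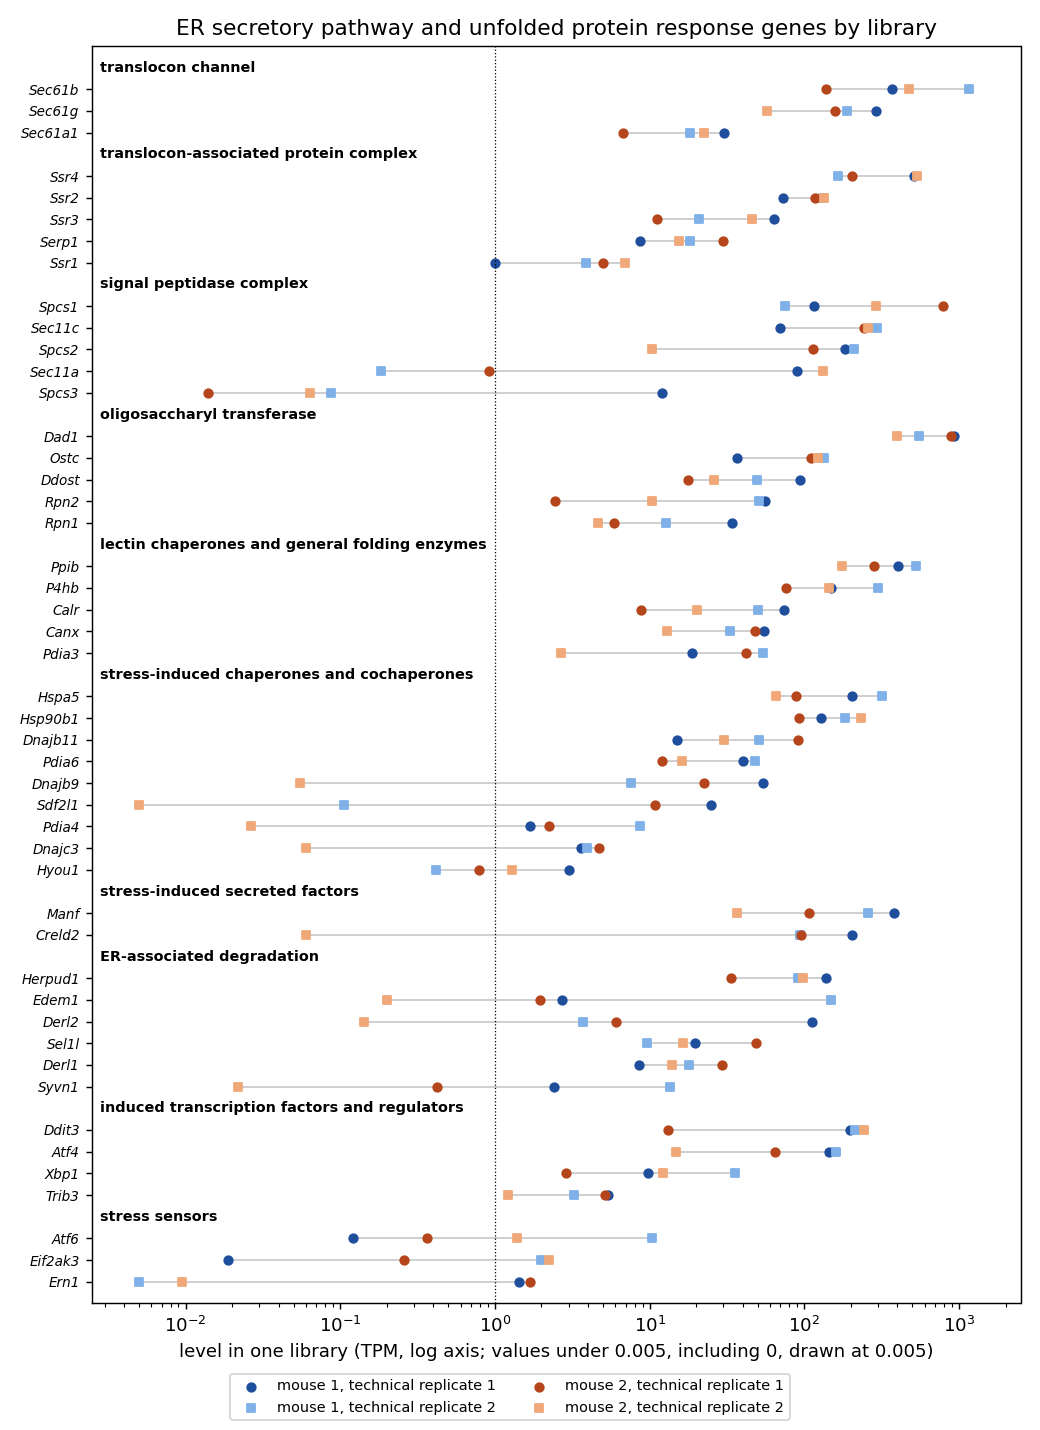
Level of each of the 47 members in each of the 4 libraries, in TPM on a log axis, with members ordered by level within their class and a dotted line at 1 TPM. Genes such as Dad1, Ppib and Hspa5 kept the 4 libraries within about an order of magnitude, while Spcs3, Sec11a, Creld2 and Edem1 spread by more than 700-fold.

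In the secretory machinery the most abundant member was Dad1, a small subunit of oligosaccharyl transferase (chromosome 14 of GRCm38, 54235479 to 54254104). It was at 932 and 553 TPM in mouse 1, against 883 and 397 in mouse 2, for a level of 691 ± 72.6 TPM, above 99.0% of all symbols expressed in any library. The mice overlapped, and in each of the 4 libraries it exceeded the other 4 subunits among the members. Ostc, another small subunit, was at 37.0 and 134 TPM in mouse 1, against 110 and 123 in mouse 2. The larger subunits were lower, with Ddost at 47.0 ± 35.3 TPM and the ribophorin Rpn2 at 29.7 ± 33.0 TPM (SD, n = 2 each). The other ribophorin, Rpn1, was the lowest of these 5 at 34.2 and 12.8 TPM in mouse 1, against 5.91 and 4.64 in mouse 2. The 5 subunits among the members ranged from 14.4 to 691 TPM. Ddost exceeded Rpn1 in each of the 4 libraries, while the place of Rpn2 beside them changed with the library.

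The Sec61 channel was uneven in the same way. Sec61b, the small β subunit (chromosome 4, 47474658 to 47483242), was at 367 and 1159 TPM in mouse 1, against 139 and 474 in mouse 2, and Sec61g, the γ subunit, at 290.1 and 188 TPM in mouse 1, against 159 and 57.5 in mouse 2. Sec61a1, which forms the pore, was at 30.3 and 18.2 TPM in mouse 1, against 6.74 and 22.6 in mouse 2, and was the lowest of the 3 in each library. Sec61b exceeded Sec61g in 3 of 4 libraries. In the translocon-associated protein (TRAP) complex, which sits beside the channel, Ssr4 led in each library at 355 ± 21.8 TPM, with 515 and 165 TPM in mouse 1, against 204 and 537 in mouse 2, so that the small SD over mice hides technical replicates that were far apart. Ssr2 followed at 73.3 and 131 TPM in mouse 1, against 118 and 134 in mouse 2. Ssr1 was the lowest at 0.996 and 3.88 TPM in mouse 1, against 5.00 and 6.97 in mouse 2. Ssr3, a further TRAP subunit, was at 35.5 ± 9.85 TPM (SD, n = 2). Serp1, a small translocon protein that is also induced by ER stress, was at 18.05 ± 6.56 TPM (SD, n = 2).

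Among the signal peptidase genes the leader changed with the library. Spcs1 was at 115 and 75.1 TPM in mouse 1, against 791 and 289 in mouse 2, without overlap between the mice. The catalytic subunit Sec11c was at 70.1 and 297 TPM in mouse 1, against 244 and 258 in mouse 2. Its paralog Sec11a, the alternative catalytic subunit, was at 89.5 and 0.183 TPM in mouse 1, against 0.913 and 133 in mouse 2. Sec11a was therefore plain in 1 library of each mouse and under 1 TPM in the other, whereas Sec11c was found in all. Spcs3 was the lowest at 12.1 and 0.0872 TPM in mouse 1, against 0.0140 and 0.0641 in mouse 2, and its level of 3.06 TPM became 0.0631 TPM without the high library.

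Of the general folding factors, Ppib (cyclophilin B, which speeds proline isomerization) led in each library at 406 and 529 TPM in mouse 1, against 284 and 176 in mouse 2. P4hb, which encodes protein disulphide isomerase, was at 149 and 300.6 TPM in mouse 1, against 75.7 and 144 in mouse 2. The lectin chaperones Calr and Canx, which hold glycoproteins until they fold, were at 38.3 ± 33.6 and 37.3 ± 9.68 TPM (SD, n = 2 each). Their partner Pdia3, a disulphide isomerase, was the lowest at 18.7 and 54.3 TPM in mouse 1, against 42.1 and 2.67 in mouse 2. The levels of Calr, Canx and Pdia3 did not differ beyond their spread over mice. Calr, P4hb and Ppib lay higher in both libraries of mouse 1 than in either of mouse 2.

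The main ER chaperones were among the abundant stress-induced targets present in every library. Hspa5, which encodes the Hsp70 chaperone BiP (chromosome 2, 34771970 to 34777547), was at 202 and 319.7 TPM in mouse 1, against 87.8 and 65.3 in mouse 2. Both libraries of mouse 1 lay above both of mouse 2. Hsp90b1, the ER form of Hsp90, was at 128 and 185 TPM in mouse 1, against 92.9 and 234 in mouse 2, with full overlap. Several other chaperone genes were sparse or uneven between libraries. Hyou1, an exchange factor for BiP, was the lowest at 3.00 and 0.418 TPM in mouse 1, against 0.791 and 1.29 in mouse 2. The BiP cochaperone Dnajc3 was at 3.08 ± 0.985 TPM and the isomerase Pdia4 at 3.14 ± 2.84 TPM (SD, n = 2 each). Dnajb9, Sdf2l1, Dnajc3 and Pdia4 were each under 0.1 TPM in technical replicate 2 of mouse 2. Dnajb9 was otherwise not sparse, at 54.5 and 7.61 TPM in mouse 1 and 22.4 in technical replicate 1 of mouse 2. Sdf2l1 was at 25.0 and 0.106 TPM in mouse 1, against 10.9 and 0 in mouse 2. Dnajb11 and Pdia6 were present throughout at 46.8 ± 19.6 and 29.04 ± 21.2 TPM (SD, n = 2 each). The 8 members with an ERSE ranged from 3.08 TPM (Dnajc3) to 169 TPM (Hspa5), so that genes with the same element differed widely in level.

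The secreted stress factor Manf (chromosome 9, 106838312 to 106891979) was the most abundant target at 378 and 256 TPM in mouse 1, against 107 and 36.7 in mouse 2. Its level of 195 ± 173 TPM did not differ from that of Hspa5 beyond the spread over mice. Creld2, another secreted target, was at 205 and 93.5 TPM in mouse 1, against 95.0 and 0.0600 in mouse 2, so that 1 library all but lacked it. In ER-associated degradation, Herpud1, an organizer of the retrotranslocation complex, was present in every library at 138 and 91.4 TPM in mouse 1, against 33.4 and 97.6 in mouse 2. Sel1l, the partner of the ubiquitin ligase Hrd1, and Derl1 were also present throughout, at 23.7 ± 12.8 and 17.5 ± 5.95 TPM (SD, n = 2 each). Hrd1 itself (Syvn1) was lower at 2.43 and 13.5 TPM in mouse 1, against 0.421 and 0.0217 in mouse 2. Edem1 and Derl2 each rested on 1 library: Edem1 was at 2.71 and 149 TPM in mouse 1, against 1.95 and 0.200 in mouse 2, and Derl2 at 112 and 3.71 TPM in mouse 1, against 6.03 and 0.143 in mouse 2. Without the high library the level was 1.89 TPM for Edem1 and 3.40 TPM for Derl2.

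Transcripts of the transcription factors Atf4, Ddit3 and Xbp1 exceeded those of each of the 3 sensors in each library. Atf4 was at 145 and 160.2 TPM in mouse 1, against 64.3 and 14.8 in mouse 2. Ddit3, which encodes CHOP, was at 197 and 214 TPM in mouse 1, against 13.2 and 244 in mouse 2, with 1 low library. Xbp1 was lower at 9.84 and 35.6 TPM in mouse 1, against 2.87 and 12.1 in mouse 2. Values summed per gene do not separate the spliced from the unspliced form of Xbp1, and ATF4 is regulated mainly by translation, so these levels do not show the activity of either. Trib3, a pseudokinase induced by ATF4 and CHOP, was the lowest of this class at 5.35 and 3.26 TPM in mouse 1, against 5.16 and 1.21 in mouse 2.

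The sensors stood at the margin of detection. Ern1 was at 1.43 and 0 TPM in mouse 1, against 1.68 and 0.00942 in mouse 2. Eif2ak3 was at 0.0187 and 1.98 TPM in mouse 1, against 0.258 and 2.23 in mouse 2. Atf6 was at 0.122 and 10.3 TPM in mouse 1, against 0.366 and 1.38 in mouse 2, and its level of 3.05 TPM became 0.497 TPM without technical replicate 2 of mouse 1. Each sensor exceeded 1 TPM in 2 of the 4 libraries, 1 of each mouse in every case, and the order of the 3 changed with the library.

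Set side by side, the secretory machinery had a higher median than the stress-induced targets in each library. The medians were 71.7 against 25.0 TPM and 63.0 against 35.6 TPM in the technical replicates of mouse 1, and 69.9 against 13.2 TPM and 51.7 against 12.1 TPM in those of mouse 2. On the log2 scale the median of machinery over that of targets was 1.71 ± 0.76 (SD, n = 2 mice), with 1.17 in mouse 1 and 2.25 in mouse 2. The smallest p that an exact two-sided sign test over 2 mice allows is 0.5, so none was used. The median over all symbols at 1 TPM or more in every library lay between 21.0 and 27.8 TPM, and the median of the sensors between 0.122 and 1.98 TPM. Without Xbp1, Atf4, Ddit3 and Trib3 among the targets the log2 ratio was 2.57. The groups do not cleanly part stress genes from others, since Serp1 of the machinery is also induced by ER stress. With Serp1 among the targets the log2 ratio was 1.99.

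**Figure D2:**
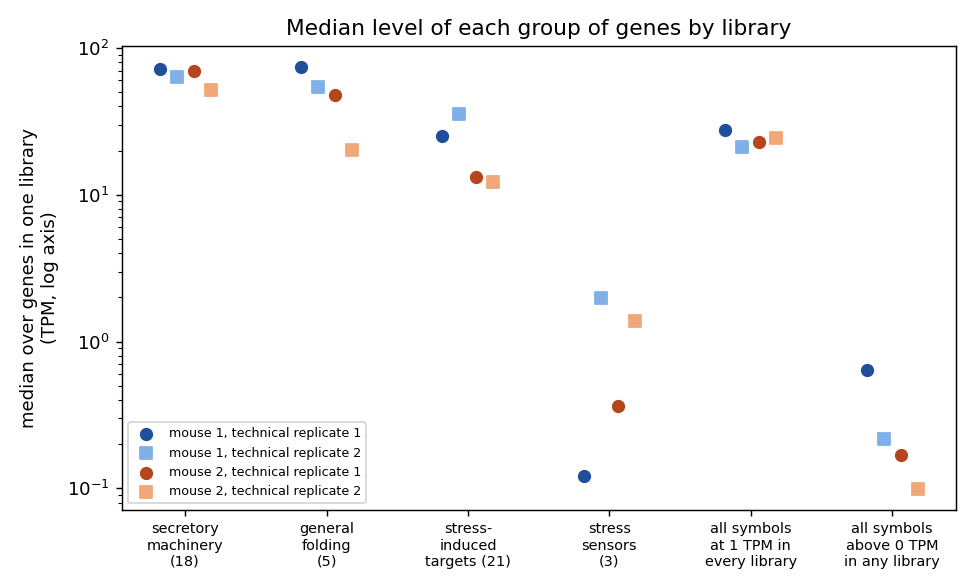
Median level over the genes of each group in each of the 4 libraries, in TPM on a log axis, beside the medians over all symbols, with the number of genes in parentheses. The secretory machinery lay between 51.7 and 71.7 TPM and the targets between 12.1 and 35.6 TPM.

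Transcript length moved with this difference. The median effective length was 873 bases for the machinery and 1587 bases for the targets, and the level fell with length across the members, with a Spearman correlation of -0.75 over the 47 genes and -0.95 over the 18 genes of machinery. Across the 3179 symbols at 1 TPM or more in every library the same correlation was -0.60. Genes are not independent replicates and share their libraries, so these are descriptions. The 11 members shorter than 700 bases, 7 of them machinery and 3 targets, had a median level of 217 TPM, while the 15 members of 2500 bases or more, 5 of them machinery and 5 targets, had a median of 14.4 TPM. Among members between these lengths (6 of machinery, 13 targets), a restriction chosen after seeing the data, the log2 ratio of machinery to targets was 0.15 ± 0.12 (SD, n = 2 mice), with values of 0.41 and 0.07 in mouse 1 and -0.87 and 1.01 in mouse 2. Within this range the machinery had the higher median in 3 of the 4 libraries, and its genes were still the shorter, with a median of 1079.6 bases against 1525 bases for the targets. The uneven subunits described above followed the same order within each complex, since Dad1, Sec61b and Ssr4 have effective lengths of 324, 260 and 367 bases and Rpn1, Sec61a1 and Ssr1 of 2840, 1674 and 10003 bases. The part of length in the deposited TPM was not tested beyond this. Against a straight line of log2 level on log2 length fitted over the 47 members after seeing the data, Hsp90b1 and Hspa5 lay furthest above, by 3.31 and 3.00, at effective lengths of 2408 and 1995 bases. Sdf2l1 and Trib3 lay furthest below, at -4.21 and -4.15, with 459 and 883 bases. Both chaperones and both low genes are stress-induced targets.

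**Figure D3:**
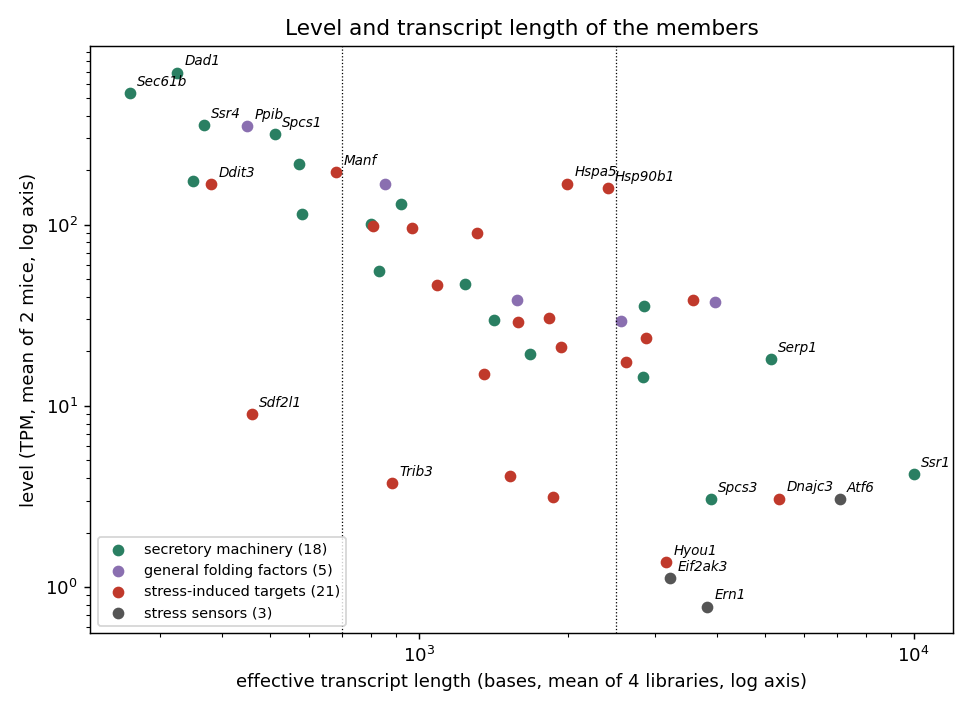
Level of each member (TPM, mean of 2 mice, log axis) against its effective transcript length (bases, mean of 4 libraries, log axis), coloured by group, with dotted lines at 700 and 2500 bases. Levels fall from 691 TPM for Dad1 at 324 bases to 0.781 TPM for Ern1 at 3828 bases.

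More members lay higher in mouse 1 than in mouse 2, as did more of all symbols. In 15 members both libraries of mouse 1 lay above both of mouse 2, against 24.2% of the 19229 symbols above 0 TPM in any library, and in 2 members (Ssr1 and Spcs1) both of mouse 2 lay above both of mouse 1, against 9.21%. The 15 were Sec61g, Spcs2, Spcs3, Ddost, Rpn1 and Rpn2 of the machinery, Calr, P4hb and Ppib of the folding factors, and Hspa5, Pdia6, Manf, Syvn1, Edem1 and Atf4 of the targets. With the means also at least 4-fold apart on TPM + 1, 6 members were called higher in mouse 1 (Spcs3, Rpn2, Calr, Manf, Syvn1 and Edem1), against 6.90% of symbols, and 1 in mouse 2 (Spcs1), against 4.12%. Of these calls, Rpn2 rested on 55.4 and 50.8 TPM in mouse 1, against 2.43 and 10.3 in mouse 2, and Calr on 74.1 and 49.98 TPM in mouse 1, against 8.79 and 20.2 in mouse 2. The calls of Spcs3 and Edem1 each rested on 1 high library of mouse 1. Spcs3 was at 12.1 and 0.0872 TPM in mouse 1, against 0.0140 and 0.0641 in mouse 2. Edem1 was at 2.71 and 149 TPM in mouse 1, against 1.95 and 0.200 in mouse 2. Of all symbols called, 62.6% were higher in mouse 1, or 72.9% when estimated counts scaled to 1000000 per library replaced TPM. On those counts 10 members were called higher in mouse 1, against 11.7% of symbols. The lean of all symbols was weaker among the 3179 at 1 TPM or more in every library, which include 32 members. Of these symbols 226 were called higher in mouse 1 and 194 in mouse 2. Without the limit on fold, 795 lay higher in mouse 1 without overlap and 570 in mouse 2. At 2-fold 15 members were called higher in mouse 1, against 13.5% of symbols, and 2 in mouse 2, against 6.70%. Technical replicates are not independent samples, so no p-value is given and the calls describe these 2 mice.

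The groups overlapped widely in this difference, which was not tested between them. On log2(TPM + 1), averaged over technical replicates, mouse 1 minus mouse 2, the median was 0.47 for machinery, 1.05 for the folding factors, 1.48 for the targets and -0.08 for the sensors, against 0.21 for all symbols at 1 TPM or more in every library. Mouse 1 was higher in 10 of 18 genes of machinery, 5 of 5 folding factors, 18 of 21 targets and 1 of 3 sensors, and in 1761 of 3179 symbols. Single genes ranged from -2.35 to 3.11 in the machinery and from -0.996 to 3.79 in the targets. In 6 of 18 genes of machinery and 6 of 21 targets both libraries of mouse 1 lay above both of mouse 2. The share was 24.2% of the 19229 symbols above 0 TPM in any library. Other scalings (without mitochondrially encoded genes, without the 20 highest genes, or estimated counts scaled to 1000000) moved the median of all symbols to between 0.04 and 0.48. Relative to these symbols the targets were higher in mouse 1 by 1.27, and by 1.38 to 1.55 under those scalings, while the machinery was higher by 0.25 to 0.29. Those scalings multiply all genes of a library by 1 constant, and the counts also by a length shared by the libraries. Relative values can therefore move little except through the 1 added to TPM, so their staying was no separate check. Of the 21 targets, 9 are not among the symbols at 1 TPM or more in every library. Over all 19229 symbols above 0 TPM in any library the median was 0.08, and 12004 were higher in mouse 1. Mitochondrially encoded genes took 10.4% and 9.26% of TPM in mouse 1 and 25.9% and 14.9% in mouse 2. Of the 8 members with an ERSE, 4 (Hspa5, Calr, Pdia6 and Syvn1) had both libraries of mouse 1 above both of mouse 2 and 0 the reverse, against 24.2% and 9.21% of all symbols, and nothing is read from so few genes. Fewer cells of a type and less RNA per cell cannot be told apart in pooled cells.

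**Figure D4:**
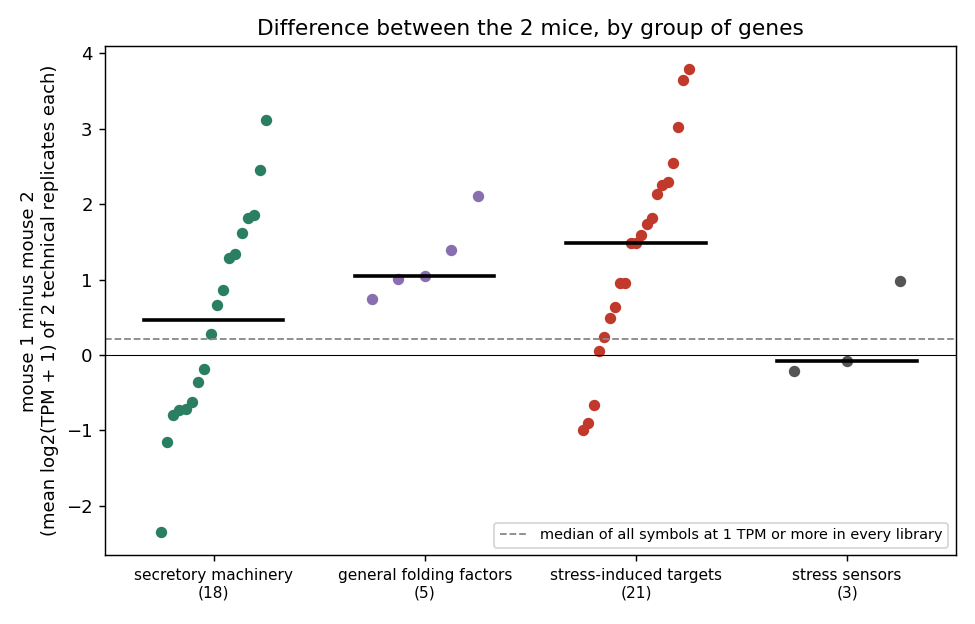
Difference between the mice for each member, as the mean log2(TPM + 1) of the technical replicates of mouse 1 minus that of mouse 2, with a bar at the median of each group and a dashed line at the median of all symbols at 1 TPM or more in every library (0.21). The median was 0.47 in the machinery and 1.48 in the targets.

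Other lists moved with the mice. The summed level of 12 immediate-early genes, which respond quickly to stress and to tissue digestion and were led by Fos and Egr1, was 3015 and 2609 TPM in mouse 1, against 1243 and 1094 in mouse 2, and in 8 of them both libraries of mouse 1 lay above both of mouse 2. That of 12 cytosolic chaperones was 3944 and 3949 TPM in mouse 1, against 1589 and 2313 in mouse 2, led by Hspb1 and Hspa8. That of 12 renin cell genes, led by Ren1 and Crip1, was 50828 and 47364 TPM in mouse 1, against 28292 and 24821 in mouse 2. Ren1 and Crip1 made up most of this sum in each library. Acta2, Tagln, Myh11 and Rgs5 overlapped between the mice, while 6 of the 12 genes lay higher in mouse 1 without overlap. The reverse held for 12 genes of the nephron beyond the proximal tubule (loop, distal tubule and collecting duct), whose sum was 88.3 and 552 TPM in mouse 1, against 1637 and 1684 in mouse 2, and 9 of which lay higher in mouse 2 without overlap. For 12 proximal tubule genes the sum was 1347 and 1538 TPM in mouse 1, against 2373 and 14813 in mouse 2, with 3 genes higher in mouse 2 and 2 in mouse 1 without overlap. Without Kap the sum was 1292 and 1518 TPM in mouse 1, against 1137 and 3673 in mouse 2, and the mice overlapped. Of these lists 7 and 8 genes met the limit of 1 TPM throughout. Sums over other lists ranged from 38.3 to 137 TPM for 9 endothelial, 13.6 to 91.2 TPM for 7 podocyte, 9.75 to 42.6 TPM for 7 fibroblast and 161 to 1008 TPM for 10 leukocyte genes, and Lum, Dpt, Lyz2 and C1qa were listed at 0 in all 4 libraries. The part of these cells and of cell dissociation in the levels of the members was not tested.

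Detection was lost between technical replicates in some members. Of 40 members at 10 TPM or more in one technical replicate of mouse 1, 4 (Spcs3, Sec11a, Sdf2l1 and Atf6) were under 0.5 TPM in the other, against 21.0% of symbols. In mouse 2 there were 3 of 34 (Dnajb9, Sdf2l1 and Creld2), against 30.3% of symbols. The median absolute difference between technical replicates on log2(TPM + 1) was 1.01 in mouse 1 and 1.45 in mouse 2 for the members, against 1.02 and 1.00 for the symbols at 1 TPM or more in every library. The median absolute difference between the mice was 1.05 for the members. It compares means of 2 technical replicates, while the differences within a mouse compare single libraries. These are unlike measures, and the difference between the mice is not ranked against those within a mouse.

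The rest of the pathway was read from lists of further genes. Of 22 genes of ER entry and glycosylation, 13 met the limit of 1 TPM throughout, led by the small oligosaccharyl transferase subunits Ost4 at 595 ± 232 TPM and Tmem258 at 286 ± 28.8 TPM (SD, n = 2 each), while Srp54a was listed at 0. Of 30 genes of transport between the ER and the Golgi, 18 did, led by the coat subunits Cope at 133 ± 78.0 TPM and Sec31a at 79.6 ± 74.3 TPM (SD, n = 2 each). Without technical replicate 1 of mouse 2 Cope was at 65.7 TPM, below Sec31a at 79.1 TPM. The summed level of this list was 761 to 898 TPM per library. Of 21 further folding and degradation genes, 8 did, led by the isomerase Fkbp2, which ranged from 69.3 to 1199 TPM, and Selenok at 283 ± 38.4 TPM (SD, n = 2).

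Of 18 further genes of the stress response, 4 met that limit: Nupr1 at 166 ± 41.5 TPM, Atf3 at 126 ± 107 TPM, Ppp1r15a (GADD34, which reverses the block of translation) at 79.5 ± 46.0 TPM and Creb3 at 10.4 ± 9.45 TPM (SD, n = 2 each). Both libraries of mouse 1 lay above both of mouse 2 for Atf3, at 219 and 184 TPM in mouse 1, against 92.0 and 8.11 in mouse 2, and for Ppp1r15a, at 134 and 90.3 TPM in mouse 1, against 37.1 and 56.8 in mouse 2. Asns, which makes asparagine, Chac1, which degrades glutathione, and Sesn2, an inhibitor of growth signalling, are further known ATF4 targets and were singled out after their values were seen. Their highest library was at 0.0882 TPM for Asns, 0.103 TPM for Chac1 and 0.00712 TPM for Sesn2. Transcripts of Atf4, Ddit3, Atf3 and Ppp1r15a stood far above those of Asns, Chac1 and Sesn2 in each library. Trib3, which ATF4 and CHOP also induce, reached at least 1 TPM in each library. Asns, Chac1 and Sesn2 therefore do not stand for the targets of ATF4 as a set.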

How the data were processed

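RNA was measured in 4 libraries of 1 condition, from 2 mice with 2 technical replicates each. Reads were trimmed with Trimmomatic 0.36 and quantified against the mouse transcriptome of GRCm38 with Salmon 0.7.2, and the authors deposited TPM and estimated counts per gene made with Tximport 1.2.0 (length-scaled). Which Ensembl release was used is not given in the sources used. All libraries have an equal sum of deposited TPM, so a rise in a few abundant genes lowers all others. A deposited mean column was not used as a level, since it averaged 3 libraries and left out the first technical replicate of mouse 1, and 8 members differed in it by more than 1.5 times from the mean of mice.

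Levels, counts and medians were computed with numpy 2.4.6, scipy 1.17.1 and pandas 2.3.3 under Python 3.11.15, and figures used matplotlib 3.10.9. Presence meant that each library held at least 1 TPM of a gene. A difference between mice was called where the libraries of the mice did not overlap and their means on TPM + 1 were at least 4-fold apart, a rule whose code was tested on simulated data with low noise. There was 1 condition and there were 2 mice, so no test between groups was made. All members were named, with values in every library for the 2 highest and the lowest of each class, the sensors, the induced transcription factors and the members called between mice, and of the 13 further lists the 2 highest genes and any gene that a count of 5 or fewer was about. For marker lists only sums are printed. The members, lists and rules were chosen with earlier results of these data known. Coordinates are from the GENCODE annotation of GRCm38, and promoter sequences are from RefSeq (GRCm38.p6). Alternatives covered leaving out libraries or mice, other scalings, minimums, pseudocounts and group make-up.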

Additional observations from a re-analysis of the deposited data

Results flagged for a closer look

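A limit was set on the gap relative to the whole range, which chance passes in about 1 of 20 groups of independent values. Of 65 quantities examined over the 4 libraries, 6 passed it, with 1 library standing far from the other 3. Among members these were Spcs3 at 12.1 TPM and Derl2 at 112 TPM in technical replicate 1 of mouse 1, and Edem1 at 149 TPM and Atf6 at 10.3 TPM in technical replicate 2 of mouse 1. The other 2 were in technical replicate 2 of mouse 2, with summed proximal tubule genes at 14813 TPM and summed endothelial genes at 137 TPM. The 4 members compare with 44.1% of all symbols above 0 TPM in any library. The share was 12.1% of symbols at 1 TPM or more in every library, which do not include these 4 members. Technical replicates are not independent, so the rate of 1 of 20 is not the one to compare with.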

How the results depend on the processing

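No paired analysis was possible because all samples belong to 1 condition. Of 108 alternative values of the main results, 77 stayed within their spread or within 1.5 times. Only the log2 ratio of machinery to targets could reverse, and 0 of its values did. Some values were bound to stay: rescaling a library leaves that ratio as it is. Leaving out 1 of 2 mice always moves it by less than its SD over mice. Leaving out single libraries or mice, the count of targets present ranged from 12 to 19 (19 without mouse 2), and the medians from 64.3 to 96.1 TPM for machinery, 30.5 to 62.05 TPM for folding factors, 14.1 to 32.9 TPM for targets and 0.632 to 1.62 TPM for sensors. The machinery median of 78.3 TPM became 92.3 without mitochondrially encoded genes, 140.5 without the 20 highest genes, 121 as counts scaled to 1000000, and 66.9 and 65.2 as geometric means of TPM + 1 and TPM + 0.1. The folding median of 38.3 TPM became 69.8 without the 20 highest genes, 239 as counts scaled to 1000000, and 75.9 and 75.5 as those geometric means. The target median of 29.04 TPM became 52.5 without the 20 highest genes and 79.9 as counts scaled to 1000000. The sensor median of 1.12 TPM became 1.29, 1.975, 6.27, 1.48 and 1.40 under the same 5 settings as the machinery. The log2 ratio of machinery to targets was 2.57 without the induced transcription factors and 0.15 among members of 700 to 2500 bases, which was chosen after seeing the data. Members called higher in mouse 1 numbered 10 as counts scaled to 1000000 (11.7% of all symbols) and 15 at 2-fold (13.5%), and in mouse 2 there were 2 at 2-fold (6.70%). Leaving out 1 library moved the level of 20 members by more than 1.5 times, most of all Spcs3, Edem1, Derl2 and Atf6. Abundant members were among these 20, with largest factors of 1.59 for Sec61b (535 TPM), 1.65 for Spcs1 (318 TPM) and 1.53 for Ddit3 (167 TPM). Sec11a (55.8 TPM) moved by up to 2.44 times. With 2 mice and technical replicates that disagreed this far, low members and some abundant ones were not reliably measured.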
